A study of Mus musculus with 2 samples.

Results

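The 10 genes described here, Fkbp5, Tsc22d3, Sgk1, Zbtb16, Klf9, Dusp1, Mt1, Mt2, Cdkn1a and Errfi1, are known to be switched on by glucocorticoid hormones in many tissues. They were taken by symbol from the 55536 annotated genes of a total RNA sequencing series on the mouse adrenal gland, the organ that makes these hormones. The series held 1 group of 2 libraries, replicate 2 and replicate 1, both from the adrenal gland of female B6CASTF1/J mice, an F1 hybrid with a CAST parent, aged 25 days. Library preparation was strand-specific, from 300 ng of total RNA with ERCC spike-in RNAs added. The labels number the libraries as biological replicates, and the tissue descriptions name separate animals. The donor field and the library description are shared, so the spread between the libraries may be biological or technical, which was not tested. No group differed in hormone or treatment, so the values are levels in the gland and carry no measure of induction. Ratios between the libraries are a description with no test of a condition.

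Cortical cells of the mouse adrenal make corticosterone, the rodent glucocorticoid, under drive from ACTH and cAMP. The hormone binds the glucocorticoid receptor Nr3c1, which waits in the cytoplasm on Hsp90 chaperones, moves into the nucleus and binds DNA at glucocorticoid response elements near its targets. Several of its targets also answer other signals: metals act on Mt1 and Mt2, p53 on Cdkn1a, mitogens and cAMP on Dusp1, and the mineralocorticoid receptor Nr3c2 on Sgk1.

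Replicate 2 held 33728646 expected counts and replicate 1 held 19366343. Nuclear protein-coding genes other than Lars2 took 22306477 of them in replicate 2, or 66.1%, and 7038809 in replicate 1, or 36.3%. In TPM, a length-corrected share scaled to a fixed sum, those coding genes summed to 338304 of 1000000 in replicate 2 and 206815 in replicate 1. Levels are therefore also given as coding TPM, rescaled so that these coding genes sum to 1000000. Cortex markers were abundant, with a median over 7 genes that reached 2335 TPM in replicate 2 and 1266 TPM in replicate 1. The 8 medulla markers were likewise present at 1 TPM or more in each library. Of 9 hepatocyte markers, only Alb reached 1 TPM in both libraries, and their summed level was 3.92 TPM in replicate 2 against 219 TPM in replicate 1.

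All 10 genes were detected, at or above 1 TPM, in both libraries, and they spanned a wide range of moderate levels. The middle of the 10 stood at 21.2 TPM in replicate 2 and at 13.9 TPM in replicate 1, or 17.6 ± 5.15 TPM (mean ± SD, n = 2), against 12.7 TPM in replicate 2 and 7.40 TPM in replicate 1 for all coding genes at 1 TPM or more. On coding TPM the median of the 10 was 62.7 in replicate 2 and 67.2 in replicate 1, so that replicate 2 was the higher library in TPM and the lower one on coding TPM. In replicate 2, 6 of the 10 lay above the median coding gene, and in replicate 1, 7 of the 10. Together the genes received 12409 counts in replicate 2, or 0.0556% of the coding counts, and 4446 in replicate 1, or 0.0632%. For every one of them the deposited posterior SD of the count was 0, so no read was split with another gene at the gene level.

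**Figure D1:**
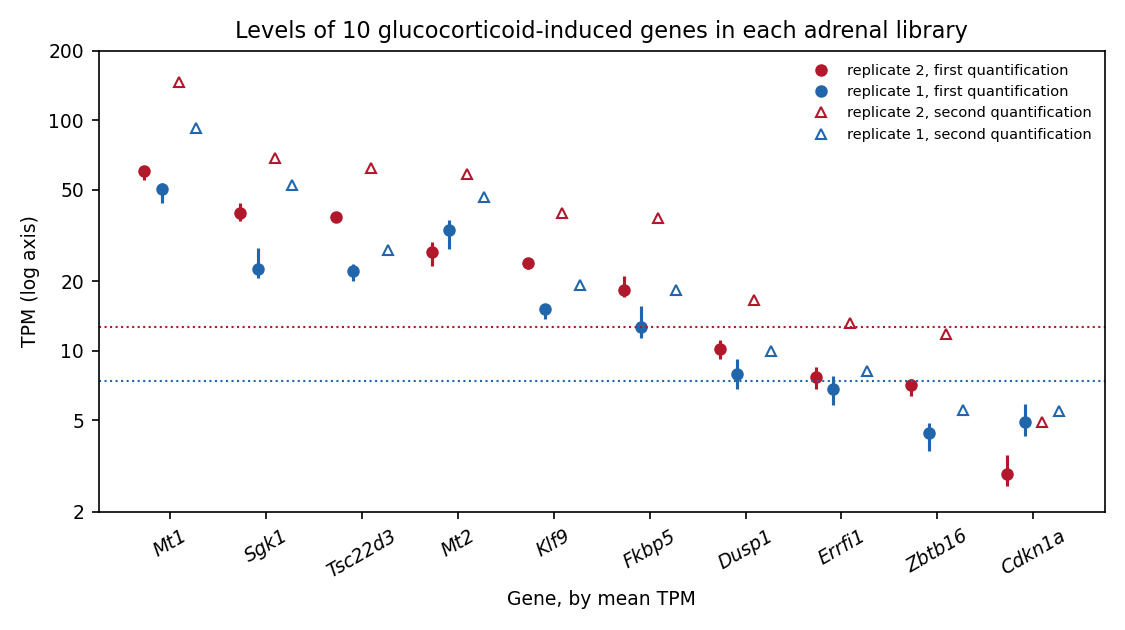
TPM (log axis) of each gene in replicate 2 (red) and replicate 1 (blue), in the first quantification (filled circles, with the deposited credibility interval as a line) and the second (open triangles). Dotted lines mark the median coding gene at 1 TPM or more in each library, 12.7 TPM in replicate 2 and 7.40 TPM in replicate 1; Mt1 is highest and Cdkn1a or Zbtb16 lowest.

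The order by mean TPM ran Mt1, Sgk1, Tsc22d3, Mt2, Klf9, Fkbp5, Dusp1, Errfi1, Zbtb16, Cdkn1a. Both libraries of the higher gene lay above both of the lower one for Mt1 over Sgk1, Mt2 over Klf9, Fkbp5 over Dusp1, and Dusp1 over Errfi1. Sgk1 and Tsc22d3, Klf9 and Fkbp5, and Errfi1 and Zbtb16 overlapped, although each kept its order within each library. Tsc22d3 with Mt2 and Zbtb16 with Cdkn1a changed order between the libraries. On coding TPM, Klf9 stood above Fkbp5 and Errfi1 above Zbtb16 in both libraries of each, while Dusp1 and Errfi1 overlapped. The second quantification, made directly from the read files, gave the same order except that Mt2 stood above Tsc22d3.

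Fkbp5 and Tsc22d3 are widely used as readouts of glucocorticoid receptor activity. Fkbp5, an Hsp90 co-chaperone that lowers the receptor's affinity for hormone, lies on the minus strand of chromosome 17 at 28399094 to 28517527 (mm10). It had 18.4 TPM in replicate 2, with a credibility interval of 17.2 to 21.1, and 12.6 TPM in replicate 1, with an interval of 11.4 to 15.6, from 1691 and 526 counts in the same libraries. The intervals did not overlap in TPM, with replicate 2 higher, but on coding TPM the gene stood at 54.4 in replicate 2 and 61.1 in replicate 1. It lay at percentile 63.4 of detected coding genes in replicate 2 and at percentile 68.3 in replicate 1, above the middle in both. Its leading transcript, Fkbp5-201, encodes 456 residues and carried 75.0% of the gene's TPM in replicate 2 and 61.1% in replicate 1. A shorter processed transcript, Fkbp5-203, carried 18.4% in replicate 2 and 22.0% in replicate 1. In the second quantification Fkbp5-201 still led, at 48.7% in replicate 2 and 45.5% in replicate 1.

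Tsc22d3 encodes GILZ, a leucine zipper protein that carries part of the anti-inflammatory action of glucocorticoids. The gene lies on the minus strand of the X chromosome at 140539528 to 140600659. It had 38.2 TPM in replicate 2, with an interval of 36.0 to 39.3, and 22.3 TPM in replicate 1, with an interval of 20.1 to 23.7, from 2089 and 627 counts in those libraries. The intervals did not overlap in TPM, with replicate 2 higher, whereas coding TPM was 113 in replicate 2 and 108 in replicate 1. The short form Tsc22d3-201, of 137 residues, carried 54.8% of the gene's TPM in replicate 2 and 50.9% in replicate 1. The long form Tsc22d3-203, of 201 residues and from the most distal start, carried 22.0% in replicate 2 and 34.6% in replicate 1. The long form thus took a smaller share in replicate 2, and the second quantification put it at 31.8% in replicate 2 and 44.0% in replicate 1. There it was the more abundant form in replicate 1, where Tsc22d3-201 had 33.7%, but not in replicate 2, where Tsc22d3-201 had 47.7%.

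Sgk1, a kinase that raises sodium channel activity at the cell surface and is induced by both glucocorticoids and aldosterone, was the second most abundant of the 10. It lies on the plus strand of chromosome 10 at 21882184 to 21999903. Its level was 39.6 TPM in replicate 2, with an interval of 36.4 to 43.5, and 22.7 TPM in replicate 1, with an interval of 20.7 to 28.0, from 2086 and 717 counts in those libraries. The intervals did not overlap and replicate 2 was higher in TPM, while coding TPM was 117 in replicate 2 and 110 in replicate 1. Sgk1 had the most divided transcript output: of 13 annotated transcripts, the leading one, Sgk1-213 of 404 residues, carried 33.8% in replicate 2 and 33.6% in replicate 1, and no other transcript of the gene came above it in either library of the first quantification.

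Grouped by transcript start, most Sgk1 TPM came from 2 starts. The start at 21978672, used by Sgk1-213, carried 46.8% in replicate 2 and 38.2% in replicate 1. The starts between 21994666 and 21994910, used by Sgk1-201 of 431 residues and by shorter models, carried 39.3% in replicate 2 and 50.1% in replicate 1. By share of TPM the upstream start thus led in replicate 2 and the downstream one in replicate 1. In counts the upstream start led in replicate 2, at 1126 against 704. The counts were nearly level in replicate 1, at 320 upstream and 327 downstream. In the second quantification the upstream start carried 48.5% in replicate 2 and 20.3% in replicate 1. The downstream start carried 25.2% in replicate 2 and 20.2% in replicate 1 there. In replicate 1, 49.5% went to the start at 21992223, most of it to the short model Sgk1-212, with 50.4 estimated counts. The leading Sgk1 start in replicate 1 thus differed between the quantifications, and the cause was not tested.

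Of the 9 genes with promoter windows, only Sgk1 held a full glucocorticoid response element in them. Windows are 300 bases from 250 before to 50 after each RefSeq start (GRCm38.p6). The element was searched as AGAACA, then any 3 bases, then TGTTCT, whose fixed letters read the same on both strands, and each full element also counts as a pair of half-sites. The window at the start of Sgk1-202, at 21993890, matched all 12 fixed bases. Such an exact match stood in 3 of 32851 windows in the genome, or 0.00913%. The windows at the leading starts of Sgk1 held none. All 3 windows are shown because they set the element beside the starts that carry the transcripts, with full elements, half-sites (AGAACA or TGTTCT) and metal response cores (TGCACNC or TGCGCNC, either strand) in capitals.
Sgk1 upstream start, chr10:21978422-21978721, plus strand: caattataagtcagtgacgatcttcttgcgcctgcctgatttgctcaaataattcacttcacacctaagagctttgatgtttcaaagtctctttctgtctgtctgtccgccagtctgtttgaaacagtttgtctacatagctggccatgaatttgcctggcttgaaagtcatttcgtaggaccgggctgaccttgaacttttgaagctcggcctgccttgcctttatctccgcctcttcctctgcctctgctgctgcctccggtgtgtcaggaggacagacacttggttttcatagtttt
Sgk1 start of Sgk1-202, chr10:21993640-21993939, plus strand: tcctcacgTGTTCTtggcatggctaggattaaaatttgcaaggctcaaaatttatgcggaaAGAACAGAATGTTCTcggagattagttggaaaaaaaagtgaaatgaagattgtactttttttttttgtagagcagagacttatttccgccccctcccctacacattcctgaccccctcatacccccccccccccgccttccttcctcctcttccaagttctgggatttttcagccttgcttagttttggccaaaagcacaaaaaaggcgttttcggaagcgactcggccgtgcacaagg
Sgk1 downstream start, chr10:21994416-21994715, plus strand: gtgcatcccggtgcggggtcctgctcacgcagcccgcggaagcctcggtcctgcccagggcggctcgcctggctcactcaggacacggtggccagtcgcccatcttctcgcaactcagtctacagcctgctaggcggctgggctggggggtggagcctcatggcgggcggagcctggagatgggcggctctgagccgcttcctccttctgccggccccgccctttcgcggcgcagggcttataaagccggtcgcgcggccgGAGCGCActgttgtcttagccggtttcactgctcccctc
Counted from the start site to the first base of the match, with negative positions upstream, the exact element lies at -189 and a further half-site at -242. Sgk1-202, of 445 residues, carried 7.0% of Sgk1 TPM in replicate 2 and 6.94% in replicate 1, or 216 and 63.8 counts in those libraries. In the second quantification it carried 18.6% in replicate 2 and 5.23% in replicate 1. The start beside the exact element was thus a minor one in both libraries of the first quantification. A second window, of a RefSeq start at 21986104, matched with 2 mismatches, as did 1.85% of all windows, counting matches with up to 2 mismatches. No element was found within the windows of the other 8 genes, which says nothing of elements further away. For Tsc22d3, no window covered the start of its leading transcript, Tsc22d3-201, at 140543187, so the promoter there was not searched. A half-site stood in 19.0% of all windows and, outside Sgk1, in the window of the most distal Tsc22d3 start. Zbtb16 had no window in the table.

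**Figure D2:**
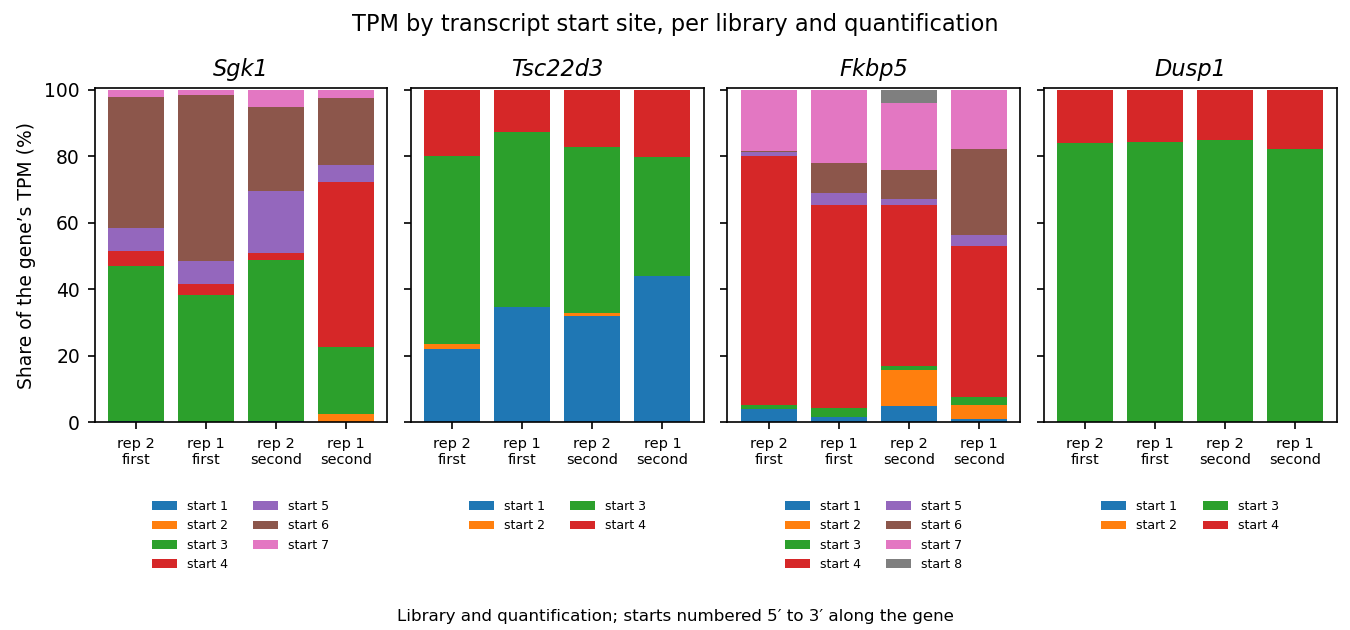
Share of gene TPM (%) by transcript start for Sgk1, Tsc22d3, Fkbp5 and Dusp1, with replicate 2 left of replicate 1 in the first and then the second quantification; starts are numbered 5′ to 3′ and starts within 300 bases are joined. For Sgk1, start 3 and start 6 carry 46.8% and 39.3% in replicate 2 of the first quantification, while start 4 takes 49.5% in replicate 1 of the second.

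Zbtb16 and Klf9 encode transcriptional regulators. Zbtb16, also called PLZF, is a zinc finger repressor that in human cells is strongly induced by glucocorticoids. It lies on the minus strand of chromosome 9 at 48654297 to 48836222. Its level was 7.11 TPM in replicate 2, with an interval of 6.39 to 7.54, and 4.41 TPM in replicate 1, with an interval of 3.67 to 4.88, from 796 and 264 counts in those libraries. On coding TPM it was almost equal, at 21.02 in replicate 2 and 21.3 in replicate 1, and it stood below the median coding gene in both. Its transcripts Zbtb16-202 and Zbtb16-201, which encode the same 673 residues, carried 55.8% and 44.2% in replicate 2, and 52.2% and 47.8% in replicate 1.

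Klf9, a Krüppel-like repressor that also follows thyroid hormone, lies on the plus strand of chromosome 19 at 23141226 to 23168134 and had the most counts of the 10, 3212 in replicate 2 and 1065 in replicate 1. That corresponded to 24.0 TPM in replicate 2, with an interval of 22.6 to 24.5, and 15.2 TPM in replicate 1, with an interval of 13.8 to 15.8. Its coding TPM was 70.9 in replicate 2 and 73.4 in replicate 1. Nearly all of it was Klf9-201, of 244 residues, with 96.2% in replicate 2 and 97.0% in replicate 1.

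Dusp1 and Errfi1 act as brakes on growth factor signalling. Dusp1, a phosphatase that inactivates MAP kinases, had 10.1 TPM in replicate 2, with an interval of 9.25 to 11.1, and 7.94 TPM in replicate 1, with an interval of 6.83 to 9.22, from 559 and 218 counts in those libraries. The intervals just missed each other in TPM, and on coding TPM replicate 2 was the lower library, at 29.9 against 38.4 in replicate 1. The gene is annotated on the minus strand of chromosome 17 at 26505590 to 26562128, and its far end overlaps Ergic1 on the opposite strand, which had 3187 counts in replicate 2 and 1149 in replicate 1. The Dusp1 transcripts that reach Ergic1, Dusp1-205 and Dusp1-201, had 0 counts in both libraries. Dusp1-202, the full phosphatase of 367 residues, carried 68.9% of the TPM in replicate 2 and 60.4% in replicate 1. Models with a retained intron, which are not fully spliced, carried 31.1% in replicate 2 and 24.7% in replicate 1.

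Errfi1, also called Mig6, binds and inhibits the EGF receptor kinase and lies on the plus strand of chromosome 4 at 150853919 to 150868892. It had 7.71 TPM in replicate 2, with an interval of 6.86 to 8.49, and 6.82 TPM in replicate 1, with an interval of 5.80 to 7.76, from 614 and 299 counts in those libraries. Those intervals overlapped, while coding TPM was 22.8 in replicate 2 and 33.0 in replicate 1. In the first quantification Errfi1-201 carried 83.5% in replicate 2 and 89.3% in replicate 1, and Errfi1-202, which starts upstream and encodes the same 461 residues, was listed at 0. The second quantification gave Errfi1-202 close to 0 in replicate 2 and 79.8% in replicate 1. The start of Errfi1 was thus the same in both libraries in the first quantification but not in the second.

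Dusp1 and Errfi1 were the only ones of the 9 genes with a promoter window that held the cAMP response element TGACGTCA. That sequence stood in 1.79% of all windows, and 2.03% of all genes had it in a window. Both windows are shown because cAMP is the second messenger of ACTH in the cortex, with that element and metal response cores in capitals.
Dusp1, chr17:26508423-26508722, minus strand: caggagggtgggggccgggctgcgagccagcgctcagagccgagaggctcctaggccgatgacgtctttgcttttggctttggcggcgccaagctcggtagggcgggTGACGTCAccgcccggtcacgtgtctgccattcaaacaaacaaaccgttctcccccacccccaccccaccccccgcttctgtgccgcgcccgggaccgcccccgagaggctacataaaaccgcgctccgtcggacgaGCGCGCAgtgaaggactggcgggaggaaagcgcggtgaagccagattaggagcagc
Errfi1, chr4:150854820-150855119, plus strand: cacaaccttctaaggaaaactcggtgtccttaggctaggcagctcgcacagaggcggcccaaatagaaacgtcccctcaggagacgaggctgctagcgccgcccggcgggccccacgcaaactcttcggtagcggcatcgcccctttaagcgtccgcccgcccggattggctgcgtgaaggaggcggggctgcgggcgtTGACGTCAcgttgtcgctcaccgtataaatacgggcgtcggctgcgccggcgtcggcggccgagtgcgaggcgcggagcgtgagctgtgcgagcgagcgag
The element lies at -143 from the Dusp1 start and at -51 from the Errfi1 start. It is the same 8 letters on both strands. All 9 genes listed as responsive to ACTH and cAMP were detected, centred on 21.8 TPM in replicate 2 and 20.8 TPM in replicate 1.

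Mt1 and Mt2, neighbouring genes for the zinc- and copper-binding metallothioneins, are 2 of the 4 metallothionein genes measured. Mt1, on the plus strand of chromosome 8 at 94179082 to 94180327, had 59.9 TPM in replicate 2, with an interval of 54.9 to 62.7, and 50.3 TPM in replicate 1, with an interval of 43.8 to 53.6, from 865 and 377 counts in those libraries. Mt2, at 94172664 to 94173568 on the same strand, had 26.8 TPM in replicate 2, with an interval of 23.4 to 29.5, and 33.3 TPM in replicate 1, with an interval of 27.5 to 37.0, from 332 and 206 counts. Mt1 was higher in replicate 2 in TPM, whereas for Mt2 the intervals overlapped. On coding TPM both were lower in replicate 2: Mt1 stood at 177 in replicate 2 against 243 in replicate 1, and Mt2 at 79.3 in replicate 2 against 161 in replicate 1. Mt1 stood at percentile 91.1 of detected coding genes in replicate 2 and at percentile 93.9 in replicate 1. The brain form Mt3 had 2.12 TPM in replicate 2 against 1.68 TPM in replicate 1, and the epithelial form Mt4 was listed at 0 in both.

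Within each library Mt1 exceeded Mt2, by 2.23 times in TPM in replicate 2 and 1.51 times in replicate 1, or 1.87 ± 0.511 (mean ± SD, n = 2). In the second quantification the ratio was 2.49 in replicate 2 and 2.00 in replicate 1. The coding sequence of Mt1-201 and Mt2-201 gives 61 residues each. Mt1-201 carried 97.9% of Mt1 TPM in replicate 2 and 96.7% in replicate 1. Mt2-201 carried 85.0% of Mt2 TPM in replicate 2 and 71.8% in replicate 1, but 100% in both libraries of the second quantification, so part of the Mt2 level in the first rests on the short model Mt2-202.

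The 2 genes lie 5514 bases apart on the same strand, and both windows held several metal response cores, the letters known to bind the zinc sensor Mtf1. They are shown because the number of cores sets them apart from the other windows of the 10 genes, with the cores in capitals.
Mt1, chr8:94178839-94179138, plus strand: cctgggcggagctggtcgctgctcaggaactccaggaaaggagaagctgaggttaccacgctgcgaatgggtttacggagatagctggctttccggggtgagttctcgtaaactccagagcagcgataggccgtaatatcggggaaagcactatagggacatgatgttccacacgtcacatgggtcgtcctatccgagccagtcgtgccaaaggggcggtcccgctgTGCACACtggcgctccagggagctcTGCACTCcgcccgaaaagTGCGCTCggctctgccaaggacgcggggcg
Mt2, chr8:94172368-94172667, plus strand: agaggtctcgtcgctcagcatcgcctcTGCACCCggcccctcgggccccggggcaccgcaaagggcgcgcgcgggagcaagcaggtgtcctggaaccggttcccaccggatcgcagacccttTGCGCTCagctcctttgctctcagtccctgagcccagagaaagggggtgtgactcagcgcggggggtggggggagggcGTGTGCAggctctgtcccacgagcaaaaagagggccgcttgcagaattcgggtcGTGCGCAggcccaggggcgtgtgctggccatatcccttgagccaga
Mt1 held 3 cores and Mt2 held 4. At least 1 core stood in 25.7% of all windows, at least 3 in 1.97% and at least 4 in 0.518%. Of the Mt1 cores 1 lay upstream of the RefSeq start, at -23, and of the Mt2 cores 3, at -223, -128 and -50. The RefSeq start of Mt2, at 94172618, lies upstream of the Mt2-201 start at 94172664. The remaining Mt2 core, at 5, is thus also upstream of Mt2-201. Dusp1 and the downstream Sgk1 window held 1 core each.

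Cdkn1a, the cell cycle inhibitor p21, was the lowest of the 10 by mean TPM and, under TMM scaling and on coding TPM, the one that differed most between the libraries. In deposited TPM, Sgk1 and Tsc22d3 differed by more, in the other direction. It lies on the plus strand of chromosome 17 at 29090976 to 29100727. Its level was 2.92 TPM in replicate 2, with an interval of 2.58 to 3.55, and 4.92 TPM in replicate 1, with an interval of 4.25 to 5.90, from 165 and 147 counts in those libraries. The intervals did not overlap, and replicate 1 had nearly as many counts as replicate 2 from a library with far fewer coding counts. On coding TPM the values were 8.63 in replicate 2 and 23.8 in replicate 1, which placed the gene at percentile 8.88 of detected coding genes in replicate 2 and at percentile 36.3 in replicate 1. Cdkn1a-201 carried 97.7% of its TPM in replicate 2 and 93.7% in replicate 1. The second quantification gave the lead to Cdkn1a-205, with 60.2% in replicate 2 and 53.9% in replicate 1; both models encode the same 159 residues.

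To set the libraries side by side, counts were scaled by TMM, which takes most genes as equal, and the log2 ratio was taken as replicate 2 over replicate 1. Its exact 95% interval covers counting error only. Over the 11542 genes that averaged 100 counts or more, 151 or 1.31% were 2-fold or more apart in either direction, and 106 or 0.918% were that much lower in replicate 2. Of the 10 genes, 1 was 2-fold or more apart. That gene was Cdkn1a, with a log2 ratio of -1.51 and an interval of -1.85 to -1.19, lower in replicate 2, so that replicate 1 had 2.84 times its level. Mt2 lay just inside the limit, at -0.99 with an interval of -1.25 to -0.74.

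At a limit of 1.5-fold, 3 of the 10 were apart, Cdkn1a, Mt2 and Errfi1, and all 3 were lower in replicate 2. Over the tested genes 5.81% were apart by that much and 2.75% were lower in replicate 2. Errfi1 had a log2 ratio of -0.64, with an interval of -0.85 to -0.44, and Mt1 of -0.48, with an interval of -0.66 to -0.31. Dusp1 followed at -0.32, with an interval of -0.55 to -0.09. The remaining genes lay close to equal: Sgk1 had -0.14, Klf9 -0.09, Zbtb16 -0.09, Fkbp5 0.00 and Tsc22d3 0.05. Of all tested genes, 0.503% had a lower ratio than Cdkn1a, 0.936% than Mt2, 2.33% than Errfi1 and 4.04% than Mt1, against 45.3% for Fkbp5 and 54.2% for Tsc22d3.

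The median log2 ratio of the 10 was -0.23, against 0.03 for all tested genes, and 8 of the 10 were lower in replicate 2. Of all tested genes, 45.3% lay below Fkbp5, whose ratio was 0.00. On total counts, where the median of all tested genes was 0.91, 2 of the 10 were lower in replicate 2, Cdkn1a at -0.63 and Mt2 at -0.11. On spike-in counts, where that median was 0.16, 6 were lower. Relative to the median of all tested genes under TMM, 9 of the 10 were lower in replicate 2, the exception being Tsc22d3. Cdkn1a and Mt2 were lower in replicate 2 under each of the scalings tried.

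**Figure D3:**
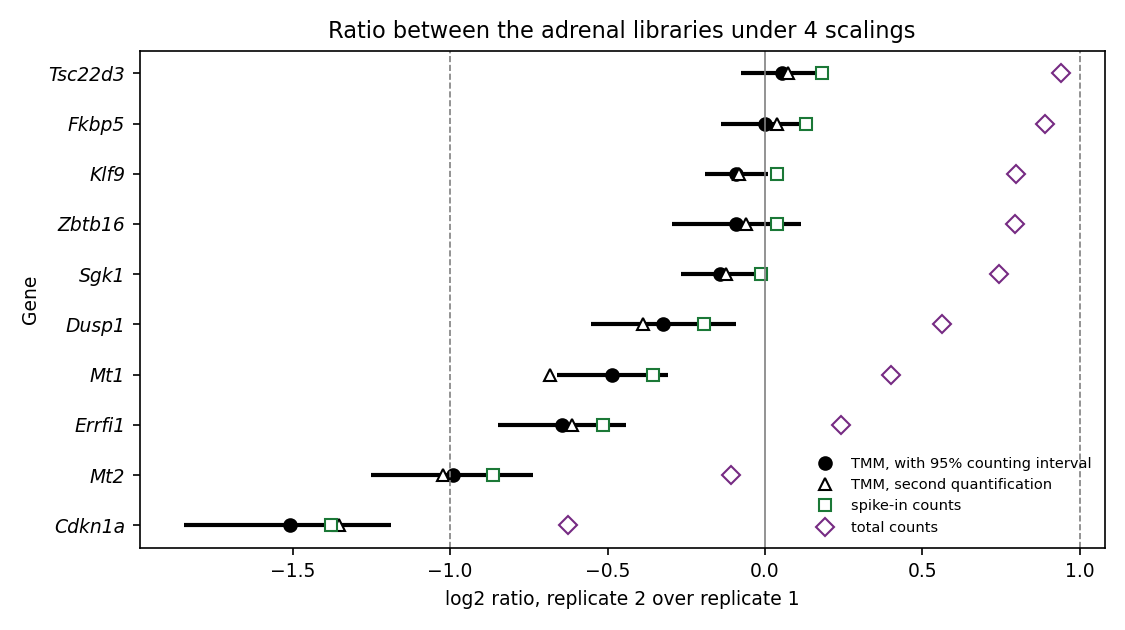
Log2 ratio of replicate 2 over replicate 1 for each gene under TMM (filled circles, with 95% counting interval), TMM in the second quantification (triangles), spike-in counts (squares) and total counts (diamonds); dashed lines mark 2-fold. Cdkn1a (-1.51) and Mt2 (-0.99) lie furthest to the left and Fkbp5 (0.00) and Tsc22d3 (0.05) near 0 under TMM, while total counts move all of them to the right.

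Hepatocyte markers also differed between the libraries: Alb had 3.47 TPM in replicate 2 against 141 TPM in replicate 1, and Gc was listed at 0 in replicate 2 and at 8.64 TPM in replicate 1. Of the 9 hepatocyte markers, 8 averaged 100 counts or more, and these 8 were all more than 2-fold lower in replicate 2. Liver levels of the glucocorticoid-induced genes described here were not measured, and the part of liver RNA in the ratio of any of these genes was not tested. Adipocyte markers were present in both libraries, with a TMM ratio below 0 for 6 of 7, and summed on coding TPM to 3061 in replicate 2 against 3951 in replicate 1. Capsule and fibroblast markers had a TMM ratio below 0 for 6 of 7, with a median of -0.38, and summed on coding TPM to 385 in replicate 2 against 546 in replicate 1. The part of either list was not tested. Over all tested genes, 45.3% had a TMM ratio below that of Fkbp5, at 0.00. In bulk tissue, fewer cells of a type and less RNA per cell cannot be told apart.

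The machinery of the hormone response was present. Nr3c1 had 14.4 TPM in replicate 2 and 8.21 TPM in replicate 1, from 2080 and 659 counts in those libraries, with a log2 ratio of -0.03. Nr3c2 had 4.92 TPM in replicate 2 and 2.63 TPM in replicate 1. Its counts of 624 in replicate 2 and 88 in replicate 1 gave a log2 ratio of 1.14, with an interval of 0.82 to 1.48, the opposite direction to Cdkn1a, while its coding TPM, corrected for transcript length, was 14.5 in replicate 2 and 12.7 in replicate 1. Every one of the 13 receptors and chaperones was detected, and their median stood at 67.6 TPM in replicate 2 against 51.4 TPM in replicate 1, led by Hsp90ab1, Hspa8 and Hsp90aa1. Of these 13, 12 were lower in replicate 2 under TMM, with a median log2 ratio of -0.33, and none was 2-fold lower. Of all tested genes, 45.3% had a TMM ratio below that of Fkbp5, at 0.00. On total counts none of the 13 was lower. Hspa8, an Hsp70 chaperone, stood lowest at -0.86. The 11 receptor coregulators, proteins that the bound receptor recruits to change transcription, were all detected, with a median log2 ratio of -0.05.

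Of the enzymes, carriers and pumps that set local corticosteroid, 12 of 14 were detected, and the list median stood at 176 TPM in replicate 2 against 81.3 TPM in replicate 1. Cyp11b1, which makes corticosterone, had 1580 TPM in replicate 2 against 943 TPM in replicate 1, and a log2 ratio of 0.00. Hsd11b1, which regenerates active hormone, had 23.4 TPM in replicate 2 and 15.6 TPM in replicate 1. Hsd11b2, which inactivates it and shields Nr3c2 from glucocorticoid in the kidney, had 3 counts in replicate 2 and 2 in replicate 1, too few to give a level. None of the 12 that averaged 100 counts or more was 2-fold apart.

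Among 16 other genes known to be glucocorticoid-induced, 11 reached 1 TPM in both libraries, and the median of the 16 was 8.39 TPM in replicate 2 against 9.11 TPM in replicate 1. The most abundant were Cebpb at 147 ± 64.5 TPM, Pck1 at 142 ± 4.77 TPM and Rgs2 at 51.9 ± 25.4 TPM (mean ± SD, n = 2). Cebpb and Pck1 lay above all of the 10 genes in both libraries. Of the 11 that averaged 100 counts or more, 2 were 2-fold lower in replicate 2 and none was 2-fold higher. Over all tested genes 0.918% were that much lower. The 2 were Pdk4, a brake on glucose oxidation, and Gadd45g, a growth arrest gene, both at -1.06 and named for their values. The clock gene Per1, another direct receptor target, lay at -0.16. Tat, a liver enzyme, had 0 counts in replicate 2 and 38 in replicate 1, and the hepatocyte markers were also lower in replicate 2.

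Lists tied to the other inputs of the 10 genes were read the same way. The 6 metal response genes had a median log2 ratio of -0.14, with Mtf1 itself at -0.01 and Hmox1 at -0.84, and none was 2-fold apart. Of 8 p53 genes 7 were detected, the median log2 ratio over all 8 was -0.04 and none of the 7 was 2-fold apart; Mdm2 lay at 0.02, Ccng1 at -0.11 and Phlda3 at 0.07. Cdkn1a, at -1.51, lay below the range of those 7, which ran from -0.32 to 0.12. The undetected p53 gene Eda2r, with 30 counts in replicate 2 and 14 in replicate 1, lay at -0.56. The part of p53 in the Cdkn1a ratio was not tested. The 6 detected immediate early genes, of 9, were led by Jun and lay between -0.54 and 0.40. Among the 9 ACTH and cAMP genes, 1 was 2-fold lower in replicate 2, against 0.918% of all tested genes. It was the kinase Sik1 at -1.07, named for its value. The receptor accessory protein Mrap lay at -0.91 while the ACTH receptor Mc2r lay at 0.05.

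**Figure D4:**
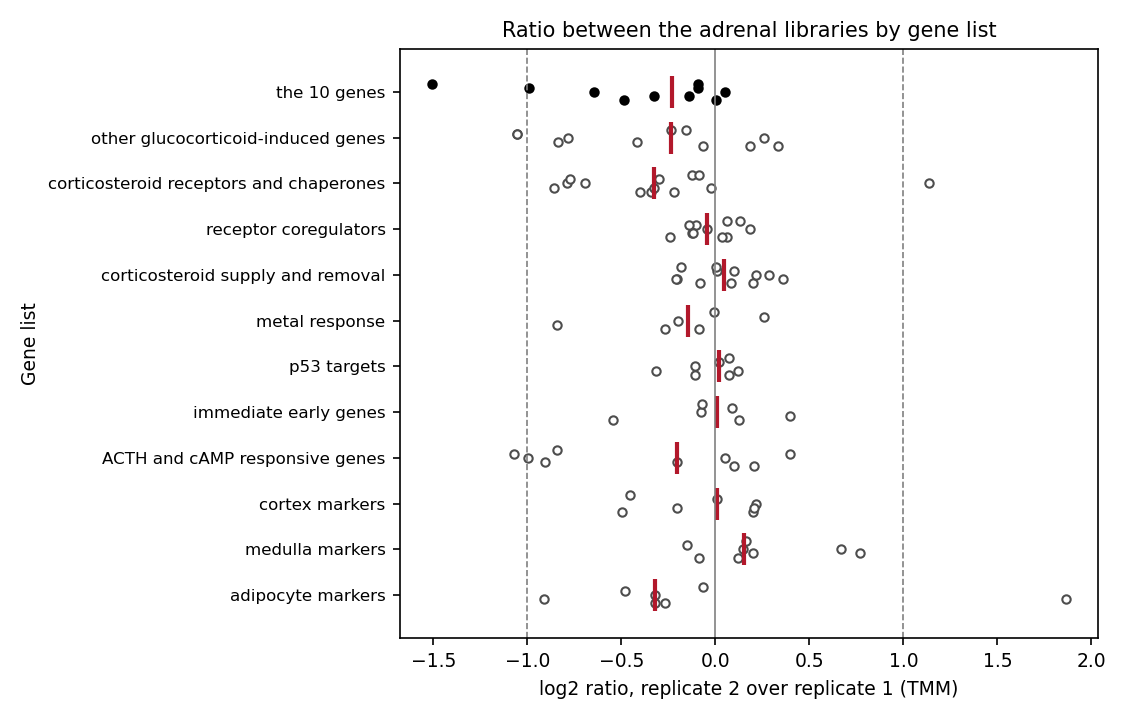
Log2 ratio of replicate 2 over replicate 1 (TMM) for each gene that averaged 100 counts or more (circles), by list, with the list median as a red line and 2-fold marked by dashed lines. The 10 genes have a median of -0.23, against -0.23 for 11 other glucocorticoid-induced genes, -0.33 for receptors and chaperones, -0.32 for adipocyte markers, -0.20 for ACTH and cAMP genes and 0.01 for cortex markers; hepatocyte markers, all far lower in replicate 2, are not drawn.

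Paralogs differed widely in level from the members of their families. Tsc22d1, a leucine zipper relative of Tsc22d3, had 312 ± 154 TPM, and Cdkn1c, a relative of Cdkn1a known in humans for a role in adrenal growth, had 219 ± 111 TPM (mean ± SD, n = 2). Both libraries of each lay above both libraries of its glucocorticoid-induced relative. Fkbp4, the chaperone partner that counteracts Fkbp5, had 67.6 TPM in replicate 2 and 51.4 TPM in replicate 1, also above Fkbp5 in both. Cdkn1b had a log2 ratio of 0.62 and Cdkn1c of 0.28, both higher in replicate 2, where Cdkn1a was lower. Of 18 paralogs 14 were detected, the median of all 18 was 4.38 TPM in replicate 2 against 3.19 TPM in replicate 1, and of the 13 that averaged 100 counts or more none was 2-fold apart.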

How the data were processed

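Total RNA of the mouse adrenal gland was sequenced in 2 libraries of 1 group, and the members and gene lists were chosen with earlier results of these data known. Per the notes deposited beside the files, reads were quantified against mm10 with GENCODE M21, first from an alignment and a second time directly from the read files. No program is named in the sources used here. Expected counts (estimated reads) were deposited by the authors, as were TPM values and the percent of a gene's TPM on each transcript, per the file headers. They also deposited bounds of a credibility interval as a signal on the TPM scale, and the posterior SD of each count, a score of how far reads were split. All 55536 annotated genes were matched by identifier; 26248 tRNA entries and 97 spike-in entries were set aside, the spike-ins serving only as an alternative scaling.

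Counts were rounded to whole numbers and scaled by TMM in edgeR 4.0.16 under R 4.3.3, and 1 prior count was added; the size ratio of replicate 2 over replicate 1 was 1.68 on the log2 scale. Intervals of 95% are exact Clopper-Pearson and cover counting error only, since the reads carry no molecular identifiers and several may come from the same molecule. The interval method was tested on simulated data that held counting error only, so the test does not bear on other spread between libraries. With 1 group there was no test between groups. Alternatives were DESeq2 1.42.0 size factors, total, coding and spike-in counts, other priors and count minimums, the second quantification and each library alone. Promoter windows are from RefSeq (GRCm38.p6), with 9 of the 10 genes matched. They were searched in Python 3.11.15, with up to 2 mismatches allowed for the full glucocorticoid response element and exact matches for the other motifs. Named genes are the 10 members, the receptors, the 3 highest of other lists and list members a result refers to; any other gene was named after its values were seen. Single coregulators are not reported here.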

Additional observations from a re-analysis of the deposited data

How the results depend on the processing

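The median level of the 10 genes moved to 28.7 TPM in the second quantification and to 64.9 on coding TPM, and lay between 13.9 and 21.2 TPM with either library alone. The count of genes 2-fold apart was 0 on total counts, 3 at a limit of 1.5-fold and 2 in the second quantification, where Mt2 joined Cdkn1a at -1.02. Of all tested genes, 36.1% were 2-fold apart on total counts, nearly all of them higher in replicate 2, and 1.23% were in the second quantification. The cause of these moves was not tested, except that the coding TPM scale and the lower limit act by construction. Neither gene called at 2-fold, Cdkn1a or Mt2, changed direction under any scaling of the counts. In TPM of the second quantification, however, Mt2 was higher in replicate 2, at 58.7 against 46.4 in replicate 1. Cdkn1a had 4.93 TPM in replicate 2 and 5.50 TPM in replicate 1 there. Errfi1, called at 1.5-fold at -0.64, changed direction on total counts, to 0.24. On total counts 6 ratios that were below 0 under TMM, those of Sgk1, Klf9, Zbtb16, Dusp1, Mt1 and Errfi1, lay above 0, as did the median of all tested genes at 0.91. No paired analysis was possible because the series holds 1 group. With 2 libraries, each SD rests on a single difference, and the lower coding depth of replicate 1 limits Cdkn1a and Mt2 the most.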
